A study of Mus musculus with 32 samples.

Results

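The 12 day-7 spinal cord injury libraries of this series, made from gastrocnemius muscle of young male mice, were divided into 2 sets, which were chosen by a measured value: the share of a library's counts that fell on Myh4, the gene of the fastest myosin heavy chain (type IIb). The 6 libraries with the lowest share form the Myh4-low set and the other 6 the Myh4-high set, out of 32 libraries in all. The Myh4-low set holds SCI vehicle libraries 1, 2 and 5 and SCI boldine libraries 2, 3 and 5, and the Myh4-high set holds SCI vehicle libraries 3, 4 and 6 and SCI boldine libraries 1, 4 and 6. All 12 came from mice with a complete spinal cord injury that were killed 7 days after surgery. Boldine, a plant alkaloid, is known as a blocker of hemichannels made of connexins or pannexins, and vehicle is the carrier without it. The day-7 controls are 4 libraries from sham-operated mice that received vehicle. At 28 days the series holds 12 libraries from injured mice, again with vehicle or boldine, and 4 from sham mice with vehicle. The labels do not say whether each library came from a separate mouse. The labels give no strain, age in weeks or dose.

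Gastrocnemius is a mixed muscle in which fibres with type IIb myosin dominate. Such fibres contract fast, live on glycogen and phosphocreatine, and hold a dense system of calcium release channels and pumps. Muscle that loses its nerve input or its load breaks down contractile protein through ubiquitin ligases and the proteasome, re-expresses acetylcholine receptors outside the synapse, and can switch on NF-kappaB, a family of transcription factors held in the cytoplasm by inhibitor proteins.

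Since a measured RNA chose the sets, every difference between them is a description and carries no p-value, and Myh4 itself is no result. Values are CPM, counts scaled to a common library size with TMM factors (trimmed mean of M values), given as the lowest, the median and the highest of the 6 libraries of a set, or as the 4 sham libraries in the order of their numbers. A log2 difference is Myh4-low minus Myh4-high with treatment as a covariate, followed by its approximate standard error (SE). Each library is 1 piece of whole muscle, so fewer cells of a type and less RNA per cell cannot be told apart.

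Myh4 took 2.84%, 3.13%, 3.21%, 3.49%, 3.69% and 3.75% of counts in the Myh4-low set and 4.78%, 5.57%, 5.71%, 5.90%, 6.66% and 7.17% in the Myh4-high set, against 6.90% to 10.2% in the 4 sham libraries. The gap at the boundary ran between SCI vehicle 1 at 3.75% and SCI boldine 4 at 4.78%. Every Myh4-low library lay below every sham library, and SCI vehicle 3 of the Myh4-high set lay within the sham range. Ranking by TMM-scaled CPM gave the same 6 libraries. Each set held 3 vehicle and 3 boldine libraries. No measure of paralysis or muscle mass was used here, so the sets say how much Myh4 RNA a muscle held and not how severe its injury was.

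**Figure D1:**
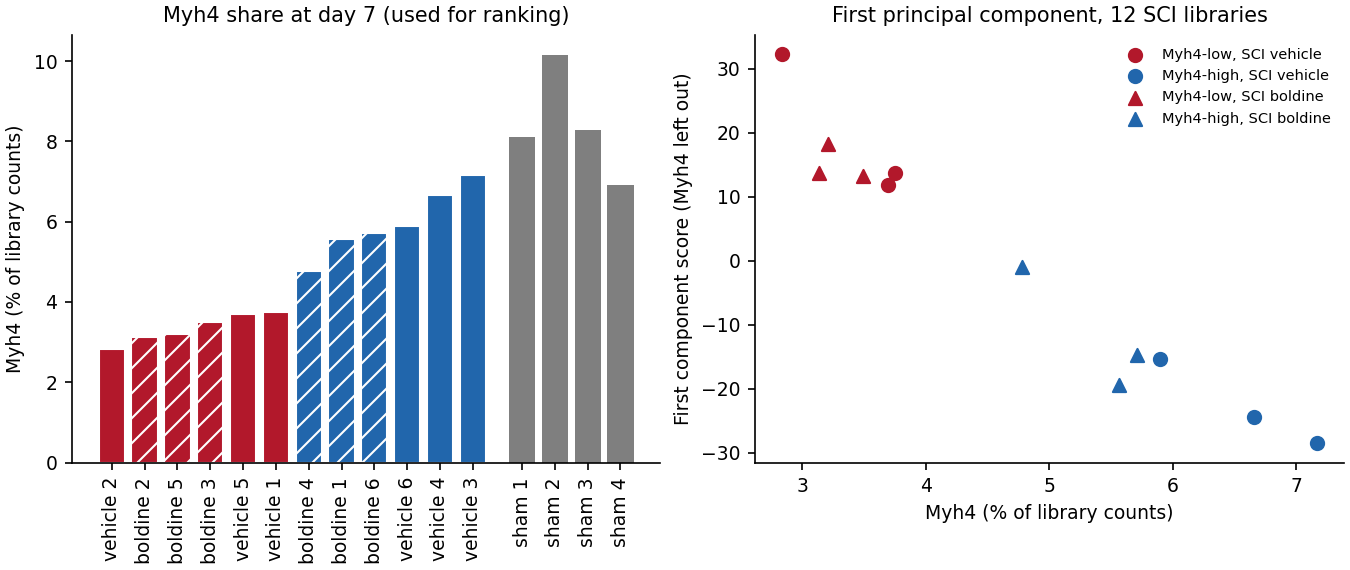
Left, Myh4 as a percentage of library counts on day 7, with the Myh4-low libraries in red, the Myh4-high libraries in blue, boldine libraries hatched and sham in grey. Right, the score on the first principal component of the 12 injured libraries, computed without Myh4, against the same share. Scores run from 11.8 to 32.3 in the Myh4-low set and from -28.5 to -0.97 in the Myh4-high set.

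With Myh4 left out, the first principal component held 29.7% of the variance of the 12 libraries and the second 13.4%. The first separated the sets, with scores from 11.8 to 32.3 in the Myh4-low set and from -28.5 to -0.97 in the Myh4-high set. SCI vehicle 2 lay farthest out on the Myh4-low side, and SCI boldine 4, at -0.97, was the Myh4-high library nearest to the other set. Library totals overlapped, at 11077762 to 12885290 counts in the Myh4-low set and 9935424 to 13040986 in the Myh4-high set. On the TMM scale 3 counts, the limit a count of 0 allows, stood for at most 0.211 CPM in the Myh4-low set, 0.278 CPM in the Myh4-high set and 0.342 CPM in sham of day 7. The 10 most counted genes of a library took 14.0% to 16.2% of counts in the Myh4-low set, 18.6% to 24.0% in the Myh4-high set and 25.1% to 28.7% in sham. TMM factors were 1.28 to 1.36 in the Myh4-low set, 1.04 to 1.21 in the Myh4-high set and 0.867 to 0.950 in sham. All libraries were rich in the muscle-defining genes Ckm, Acta1, Mb, Ttn, Neb, Actn2 and Des, which took 4.59% to 4.98% of counts in the Myh4-low set, 5.35% to 6.01% in the Myh4-high set and 7.02% to 7.47% in sham.

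Of 13872 genes measured in the 12 libraries, 481 (3.47%) were higher in all 6 Myh4-low libraries than in any Myh4-high library, and 533 (3.84%) were lower. By log2 difference, 54 of the higher and 73 of the lower genes differed at least 2-fold. The median over all 13872 genes was -0.01. The balance depends on scaling: with library totals in place of TMM, 2053 genes were higher and 151 lower, because all genes together shifted by 0.21 on the log2 scale. DESeq2 size factors gave 562 higher and 452 lower. Each TMM count below is read against those 3.47% and 3.84%, and TMM list medians against -0.01. Counts with library totals are read against 2053 and 151 of 13872 genes, and medians with library totals against the shift of 0.21. Without SCI boldine 4, the library between the sets, 792 genes were higher and 851 lower.

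The gene with the largest difference on the higher side was Mymx (chr17:45600971-45602102, mm10), which encodes myomixer, the small membrane protein that lets myoblasts fuse. Mymx read 4.75, 9.35 and 11.4 CPM in the Myh4-low set and 0.766, 1.16 and 2.53 CPM in the Myh4-high set, and 0.318, 0, 0.35 and 0 CPM in sham. The Myh4-low libraries were all above the Myh4-high ones, which were all above sham, and the log2 difference was 2.54 ± 0.30 (3.39 among SCI vehicle and 1.82 among SCI boldine libraries). Lgals3, the secreted lectin galectin-3, read 26.7, 36.4 and 38.5 CPM in the Myh4-low set and 7.51, 12.4 and 16.2 CPM in the Myh4-high set, and 2.65, 1.25, 4.12 and 1.27 CPM in sham (1.57 ± 0.16). Colq, the collagen tail that anchors acetylcholinesterase in the synaptic cleft, read 29.8, 49.8 and 85.5 CPM in the Myh4-low set and 14.5, 15.9 and 25.5 CPM in the Myh4-high set, and 8.38, 6.84, 10.1 and 10.8 CPM in sham (1.46 ± 0.19). For both genes the 3 groups were stacked without overlap, with the Myh4-low set on top and sham at the bottom.

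The other genes among the 10 largest differences on the higher side were Nfkbie, Perp, Csf2rb2, Icam1, Tmem176a, Tmem176b and Aif1l. Icam1, the adhesion molecule that white blood cells bind, read 11.9, 15.5 and 47.1 CPM in the Myh4-low set and 4.28, 6.38 and 8.78 CPM in the Myh4-high set, and 1.27, 1.03, 3.33 and 2.27 CPM in sham (1.66 ± 0.23). Aif1l, an actin-binding relative of the macrophage protein IBA1, read 57.2, 81.2 and 116 CPM in the Myh4-low set and 18.5, 28.7 and 49.9 CPM in the Myh4-high set, and 3.92, 4.33, 2.63 and 1.91 CPM in sham (1.42 ± 0.20). Perp, a membrane protein of cell contacts and a p53 target, read 4.39, 7.33 and 13.5 CPM in the Myh4-low set and 1.43, 1.92 and 3.83 CPM in the Myh4-high set, and 0.848, 1.71, 0.525 and 0.454 CPM in sham (1.83 ± 0.28), so that its Myh4-high and sham libraries touched. Csf2rb2, a mouse receptor subunit for interleukin 3, read 16.3, 24.7 and 66.5 CPM in the Myh4-low set and 7.06, 8.3 and 11.6 CPM in the Myh4-high set, and 1.91, 2.28, 3.06 and 1.72 CPM in sham (1.83 ± 0.22), but its near-identical neighbour Csf2rb can share reads with it. Tmem176a and Tmem176b overlap on opposite strands and the libraries do not keep the strand, so their differences of 1.64 ± 0.18 and 1.59 ± 0.19 cannot be told apart. In all 10 genes the Myh4-high median lay between the Myh4-low and the sham median, and in 9 of them every Myh4-high library also lay above every sham library. All 10 were among the genes that rose after injury at day 7 (edgeR quasi-likelihood test of 12 injured against 4 sham libraries, in which 23.1% of 14955 genes rose and 25.1% fell). The libraries that chose these genes also entered that test, so its calls are not independent of the choice, here and for the genes lower in the Myh4-low set. Injury calls here and below are on the TMM scale. With library totals, which shift all genes up by 0.42 on the log2 scale, 7806 genes rose and 1424 fell after injury.

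On the lower side the 10 largest differences were those of Odf3l2, Kcnf1, Smox, Cmbl, Smco1, Col22a1, Myoz3, Amd1, Ighm and Gpd1. Col22a1 (chr15:71795795-72034227), a collagen of the junction between muscle fibre and tendon, read 3.62, 4.19 and 5.48 CPM in the Myh4-low set and 10.1, 12.4 and 17.8 CPM in the Myh4-high set, and 23.2, 52.9, 26.1 and 22.9 CPM in sham (-1.58 ± 0.16). Myoz3, a Z-disc protein of fast fibres, read 26.7, 32.2 and 39.1 CPM in the Myh4-low set and 67.5, 90.9 and 155 CPM in the Myh4-high set, and 309, 363, 317 and 257 CPM in sham (-1.57 ± 0.19). Cmbl, a cytosolic hydrolase, read 5.74, 10.5 and 13 CPM in the Myh4-low set and 23.5, 33.9 and 39.9 CPM in the Myh4-high set, and 58.4, 77.5, 62.1 and 44.9 CPM in sham (-1.74 ± 0.17). In these 3 genes the Myh4-low libraries were the lowest, the Myh4-high libraries lay in the middle and the sham libraries were the highest, with no overlap.

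Smco1 had the same order, with 2.31, 4.52 and 5.95 CPM in the Myh4-low set and 7.22, 13 and 22.2 CPM in the Myh4-high set, and 62.1, 39.9, 52.7 and 44.8 CPM in sham (-1.62 ± 0.25). Ighm, the constant region of immunoglobulin M, read 6.75, 10.8 and 13.5 CPM in the Myh4-low set and 14.1, 26.2 and 47.1 CPM in the Myh4-high set, and 36.8, 115, 51.8 and 72.4 CPM in sham (-1.54 ± 0.27). Kcnf1, a silent subunit of voltage-gated potassium channels, did not follow that order: it read 2.23, 3.43 and 4.58 CPM in the Myh4-low set and 4.67, 14.3 and 24.8 CPM in the Myh4-high set, and 7.85, 11.3, 7.18 and 11.2 CPM in sham. Its Myh4-low libraries lay below every sham library, its Myh4-high libraries spread to both sides of sham, and the injury test did not call it (-0.10 ± 0.48, adjusted p = 0.883). Odf3l2 was the most uneven, with 2.56, 3.19 and 3.74 CPM in the Myh4-low set and 3.83, 6.5 and 39.7 CPM in the Myh4-high set, and 3.61, 23.4, 13.7 and 19.6 CPM in sham, and it too missed the injury threshold (adjusted p = 0.159). The other 8 genes fell after injury. In 9 of the 10 the Myh4-high median lay between the Myh4-low and the sham median.

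**Figure D2:**
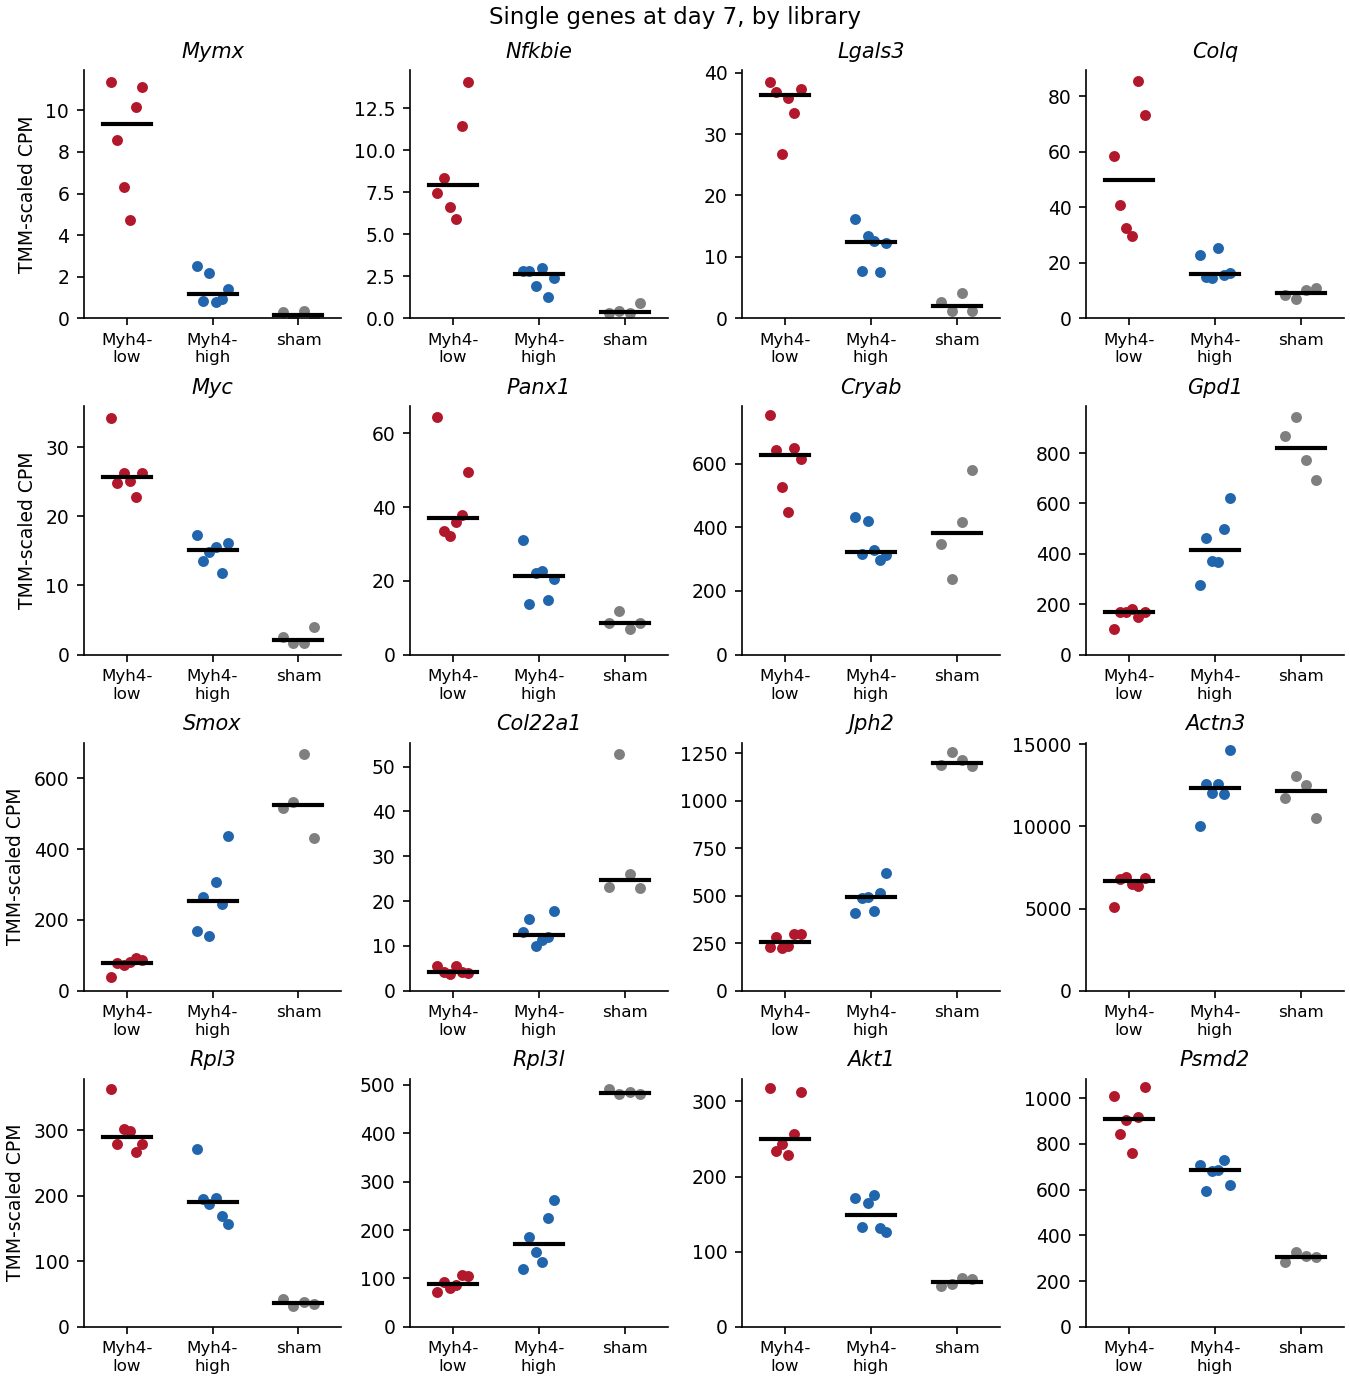
TMM-scaled CPM of 16 genes on day 7, with 1 point per library (6 Myh4-low in red, 6 Myh4-high in blue, 4 sham in grey, left to right) and a line at the median. In each panel the red and blue points do not overlap except for Rpl3, where SCI boldine 4 at 271 CPM lies within the red range; the blue and grey points overlap for Cryab, Actn3 and, by 1 library, Smox.

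Among the other genes of the fast fibre, 13 of 16 fast contractile genes were lower in the Myh4-low set without overlap and 0 were higher. Their median log2 difference was -0.69 (-0.47 with library totals). With library totals 10 were lower and 0 higher without overlap. Actn3 (chr19:4861216-4877909), the alpha-actinin of fast Z-discs, read 5117, 6656 and 6898 CPM in the Myh4-low set and 10016, 12311 and 14637 CPM in the Myh4-high set, and 11744, 13043, 12526 and 10519 CPM in sham (-0.94 ± 0.10). The Myh4-low libraries stood alone at the bottom, while the Myh4-high libraries covered the sham range, and Actn3 missed the injury threshold (adjusted p = 0.113). Tpm1, the alpha-tropomyosin of fast fibres, read 6379.6, 6874 and 7553 CPM in the Myh4-low set and 9138, 11757 and 14417 CPM in the Myh4-high set, and 18569.8, 22099, 19858 and 15178 CPM in sham (-0.75 ± 0.10). Here the Myh4-high libraries were already below every sham library. After injury 14 of the 16 genes fell and 0 rose.

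The 3 fast genes whose sets overlapped included both other adult fast myosins. Myh1, the type IIx myosin, read 2448, 4259.6 and 4535 CPM in the Myh4-low set and 926, 4270.4 and 6574 CPM in the Myh4-high set, and 3360.5, 1506, 3832 and 3999 CPM in sham (-0.02 ± 0.30). Myh2, the type IIa myosin, read 195, 342 and 579.5 CPM in the Myh4-low set and 84.1, 276 and 763 CPM in the Myh4-high set, and 2259, 585, 2283 and 4149 CPM in sham (0.31 ± 0.35). Myh2 fell after injury (-2.77 ± 0.34, adjusted p = 3.72e-08), yet the sets covered the same range. Myh7, the slow myosin, read 97.9, 112 and 241 CPM in the Myh4-low set and 10.6, 115 and 259.6 CPM in the Myh4-high set (0.26 ± 0.44), the embryonic Myh3 0.845, 3.41 and 7.48 CPM in the Myh4-low set and 0.488, 1.38 and 13.6 CPM in the Myh4-high set (0.15 ± 0.61), and the neonatal Myh8 1.97, 3.34 and 5.26 CPM in the Myh4-low set and 2.44, 3.13 and 4.91 CPM in the Myh4-high set (-0.06 ± 0.25). For none of these 5 myosins did the sets separate, so of the 6 adult and developmental myosins named here only Myh4, on which the libraries were ranked, divided them. Myhas is antisense to Myh1 and Mhrt and other RNAs overlap Myh7, which these libraries cannot resolve.

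The slow contractile list had 0 higher and 0 lower genes without overlap of 13, with a median of 0.21. Its direction differed by treatment, at 0.76 among vehicle and -0.24 among boldine libraries, a difference that was not tested. Myl2, the slow regulatory light chain, read 6.53, 10.4 and 30.1 CPM in the Myh4-low set and 0.808, 9.22 and 11.4 CPM in the Myh4-high set, and 119, 23.5, 81.9 and 169 CPM in sham (0.69 ± 0.42). The slow genes took 0.137% to 0.273% of counts in the Myh4-low set, 0.0644% to 0.285% in the Myh4-high set and 0.0602% to 0.326% in sham, where sham library 2 was the lowest of all. Although 11 of 13 slow genes fell after injury, their shares in the 2 sets overlapped.

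**Figure D3:**
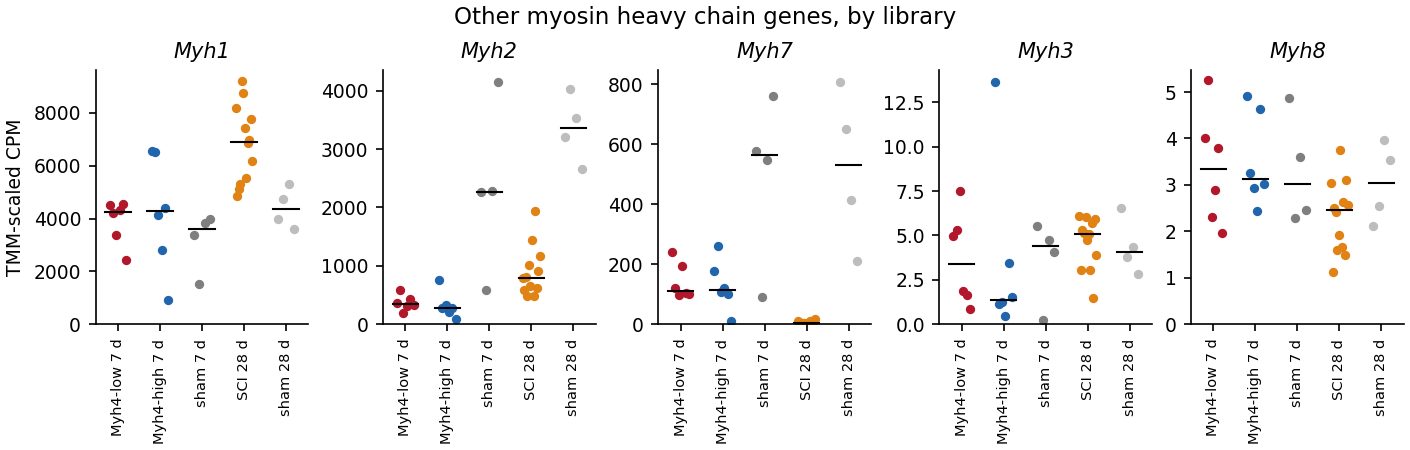
TMM-scaled CPM of the other 5 skeletal myosin heavy chain genes in the Myh4-low, Myh4-high and sham libraries of day 7 and in the injured and sham libraries of day 28, with 1 point per library and a line at the median. In every panel the Myh4-low and Myh4-high points overlap.

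Excitation and calcium release followed the fast fibre. Of 14 calcium handling genes, 8 were lower in the Myh4-low set without overlap and 1 was higher, with a median of -0.51 (-0.30 with library totals). With library totals 6 were lower and 2 higher. Among the 8, Atp2a1 and Casq1, the latter named after its values were seen, are also on the fast contractile list and are counted in both. Cacna1s (chr1:136052750-136119822), the voltage sensor of the transverse tubule, read 725, 740.2 and 763 CPM in the Myh4-low set and 1112, 1209 and 1295 CPM in the Myh4-high set, and 1048, 1287, 1291 and 1305 CPM in sham (-0.70 ± 0.06). The 6 Myh4-low libraries were packed within a narrow band far below the rest, whereas the Myh4-high libraries mixed with sham. Jph2, which ties the tubule to the calcium store, read 225, 258 and 301 CPM in the Myh4-low set and 409, 491 and 618 CPM in the Myh4-high set, and 1188, 1256, 1215 and 1182 CPM in sham (-0.91 ± 0.10). Srl, the calcium-store protein sarcalumenin, read 461, 529 and 607 CPM in the Myh4-low set and 804, 894 and 1127 CPM in the Myh4-high set, and 1641, 1941, 1894 and 1613 CPM in sham (-0.79 ± 0.09). Ryr1, the release channel, and Atp2a1, the calcium pump of fast fibres, named after their values were seen, lay at 4148 to 5712 CPM in the Myh4-low set and 6198 to 7637 CPM in the Myh4-high set for Ryr1 and at 16669 to 21562 CPM in the Myh4-low set and 24305 to 36051 CPM in the Myh4-high set for Atp2a1.

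Cacng1 went the other way. This accessory subunit of the same channel that Cacna1s forms read 721, 854 and 943 CPM in the Myh4-low set and 447, 585 and 625 CPM in the Myh4-high set, and 181, 309.9, 282 and 229 CPM in sham (0.59 ± 0.07), and it rose after injury (1.49 ± 0.15, adjusted p = 1.11e-09). So the pore-forming subunit was lower and its gamma subunit higher in the same libraries. In the strain-sensing and Z-disc list 5 of 16 measured genes were lower and none higher without overlap. The median was -0.11, and 0.10 with library totals, which shift all genes by 0.21. By that scaling 2 genes were lower and 1 was higher without overlap. Ttn, the giant spring protein titin, read 6961, 7284 and 7814 CPM in the Myh4-low set and 9158, 10321 and 13121 CPM in the Myh4-high set, and 15536, 14854, 12752 and 13381 CPM in sham (-0.53 ± 0.09). Xirp2, which binds actin at sites of strain, read 909, 998 and 1056 CPM in the Myh4-low set and 1299, 1485 and 1906 CPM in the Myh4-high set (-0.62 ± 0.07), and Ldb3, a Z-disc scaffold, 507, 605 and 739.5 CPM in the Myh4-low set and 787, 939 and 1068 CPM in the Myh4-high set (-0.58 ± 0.09). In the dystrophin complex 2 of 13 genes were lower without overlap, among them Lama2, the laminin chain that the complex holds on to, at 10.9 to 17.3 CPM in the Myh4-low set and 19.8 to 24.4 CPM in the Myh4-high set (-0.68 ± 0.10). The median of that list was -0.14. With library totals and their shift of 0.21 it was 0.08, and 2 genes were higher and 0 lower without overlap.

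Genes of glycolysis and glycogen use were the metabolic group that differed most. Without overlap 10 of 18 were lower in the Myh4-low set and 0 higher, with a median of -0.61 (-0.40 with library totals; -0.74 among vehicle and -0.48 among boldine libraries). With library totals 7 were lower and 0 higher. Gpd1 (chr15:99717515-99725005), the enzyme that links glycolysis to glycerol phosphate, read 101, 169 and 181 CPM in the Myh4-low set and 275, 417 and 622 CPM in the Myh4-high set, and 868, 943, 773 and 691 CPM in sham (-1.46 ± 0.17). Slc2a4, the insulin-regulated glucose transporter GLUT4, read 165, 180.1 and 192 CPM in the Myh4-low set and 222, 271 and 338 CPM in the Myh4-high set, and 479.8, 430.3, 477 and 477 CPM in sham (-0.61 ± 0.08). Phka1, the muscle subunit of phosphorylase kinase, read 379.8, 429 and 467 CPM in the Myh4-low set and 502, 710.4 and 1061 CPM in the Myh4-high set, and 1256, 1465, 1289 and 1195 CPM in sham (-0.77 ± 0.12). In all 3 the groups were stacked with the Myh4-low set lowest and sham highest. All 18 genes of the list also fell after injury on the TMM scale. Gm16537 lies antisense to Gpd1.

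Among the energy regulators, enzymes that buffer ATP separated the sets. Ampd1, the AMP deaminase of fast fibres, read 292, 385 and 481 CPM in the Myh4-low set and 672, 828 and 958 CPM in the Myh4-high set, and 1265, 1314, 972 and 903 CPM in sham (-1.11 ± 0.12). Ak1, adenylate kinase, read 403, 451 and 491 CPM in the Myh4-low set and 517, 719.6 and 920.1 CPM in the Myh4-high set, and 1768, 1632, 1718 and 1390.2 CPM in sham (-0.67 ± 0.10). Ckm, muscle creatine kinase, read 10517, 11970.2 and 12450.0 CPM in the Myh4-low set and 13622, 17750.0 and 21254 CPM in the Myh4-high set, and 24825, 27525, 29216 and 22749 CPM in sham (-0.59 ± 0.09). These were the 3 of 15 genes that were lower without overlap, and none was higher. The list's median was -0.09, and 0.12 with library totals, by which 2 genes were lower and 0 higher without overlap. Ampd3, the deaminase form of other tissues, was the reverse of Ampd1: it read 100.1, 116 and 152 CPM in the Myh4-low set and 46.8, 72.1 and 90.4 CPM in the Myh4-high set, and 13.4, 7.19, 11.6 and 18.2 CPM in sham (0.78 ± 0.14), and rose after injury (2.89 ± 0.24, adjusted p = 1.50e-11).

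Oxidative metabolism separated the sets little. None of 40 nuclear oxidative phosphorylation genes and none of 21 fatty acid oxidation genes differed without overlap. The medians were -0.11 and -0.03. With library totals they were 0.10 and 0.19, both below the shift of 0.21 that this scaling gives all genes. On the TMM scale all 40 oxidative phosphorylation genes nevertheless fell after injury. Their summed share of library totals overlapped sham, at 1.05% to 1.18% in the Myh4-low set, 0.976% to 1.24% in the Myh4-high set and 1.17% to 1.48% in sham. Cox7a1, a muscle subunit of cytochrome oxidase, read 22.7, 31.7 and 34.3 CPM in the Myh4-low set and 32.3, 38.2 and 65.8 CPM in the Myh4-high set, and 159, 111, 144 and 136 CPM in sham (-0.46 ± 0.15), so most of its distance from sham was shared by both sets. Citric acid cycle genes had 4 of 19 lower and none higher. Among them was citrate synthase, Cs, at 345 to 379.6 CPM in the Myh4-low set and 401 to 514 CPM in the Myh4-high set (-0.32 ± 0.07). The counts and the sign rest on the scaling. With library totals, which shift all genes by 0.21, 2 were higher and 0 lower, and the list's median was 0.06 (TMM -0.15). Of 13 mitochondrially encoded genes 10 were measured and 6 were lower without overlap (median -0.26). With library totals 0 were lower and 0 higher, at a median of -0.04. Of the 6 lower genes the one with the largest difference was mt-Nd5, a complex I subunit, at 3399 to 4079.5 CPM in the Myh4-low set and 4565 to 5423 CPM in the Myh4-high set (-0.40 ± 0.07), which overlaps mt-Nd6 on the other strand. The mitochondrial share of all counts overlapped, at 4.56% to 5.14% in the Myh4-low set and 4.80% to 5.51% in the Myh4-high set.

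Polyamine enzymes held some of the widest gaps. Smox (chr2:131491496-131525922), spermine oxidase, which turns spermine back into spermidine, read 37.5, 79.4 and 93.1 CPM in the Myh4-low set and 154, 254 and 437 CPM in the Myh4-high set, and 516, 533, 669.8 and 431 CPM in sham (-1.77 ± 0.23). Amd1, the decarboxylase that supplies the aminopropyl groups for spermidine and spermine, read 134, 257 and 325 CPM in the Myh4-low set and 418, 744 and 1137 CPM in the Myh4-high set, and 1713, 2261, 2122 and 1326 CPM in sham (-1.54 ± 0.22). Its near-identical copy Amd2 read 1.55, 2.28 and 3.87 CPM in the Myh4-low set and 5.1, 7.54 and 9.62 CPM in the Myh4-high set (-1.59 ± 0.21) and may share reads with it. Srm, spermidine synthase, was higher, at 14.5, 15.4 and 17.9 CPM in the Myh4-low set and 9.09, 11.9 and 13.5 CPM in the Myh4-high set, and 4.98, 5.93, 8.49 and 5.81 CPM in sham (0.43 ± 0.10). Of 12 polyamine genes, 3 were thus lower and 1 higher without overlap, and the other 8 overlapped (median -0.18, 0.03 with library totals). Among those 8 was Odc1, ornithine decarboxylase, named after its values were seen, at 408 to 668 CPM in the Myh4-low set and 415 to 791 CPM in the Myh4-high set and 144 to 230.3 CPM in sham: it rose after injury (1.67 ± 0.19, adjusted p = 1.54e-08), but the sets did not separate.

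**Figure D4:**
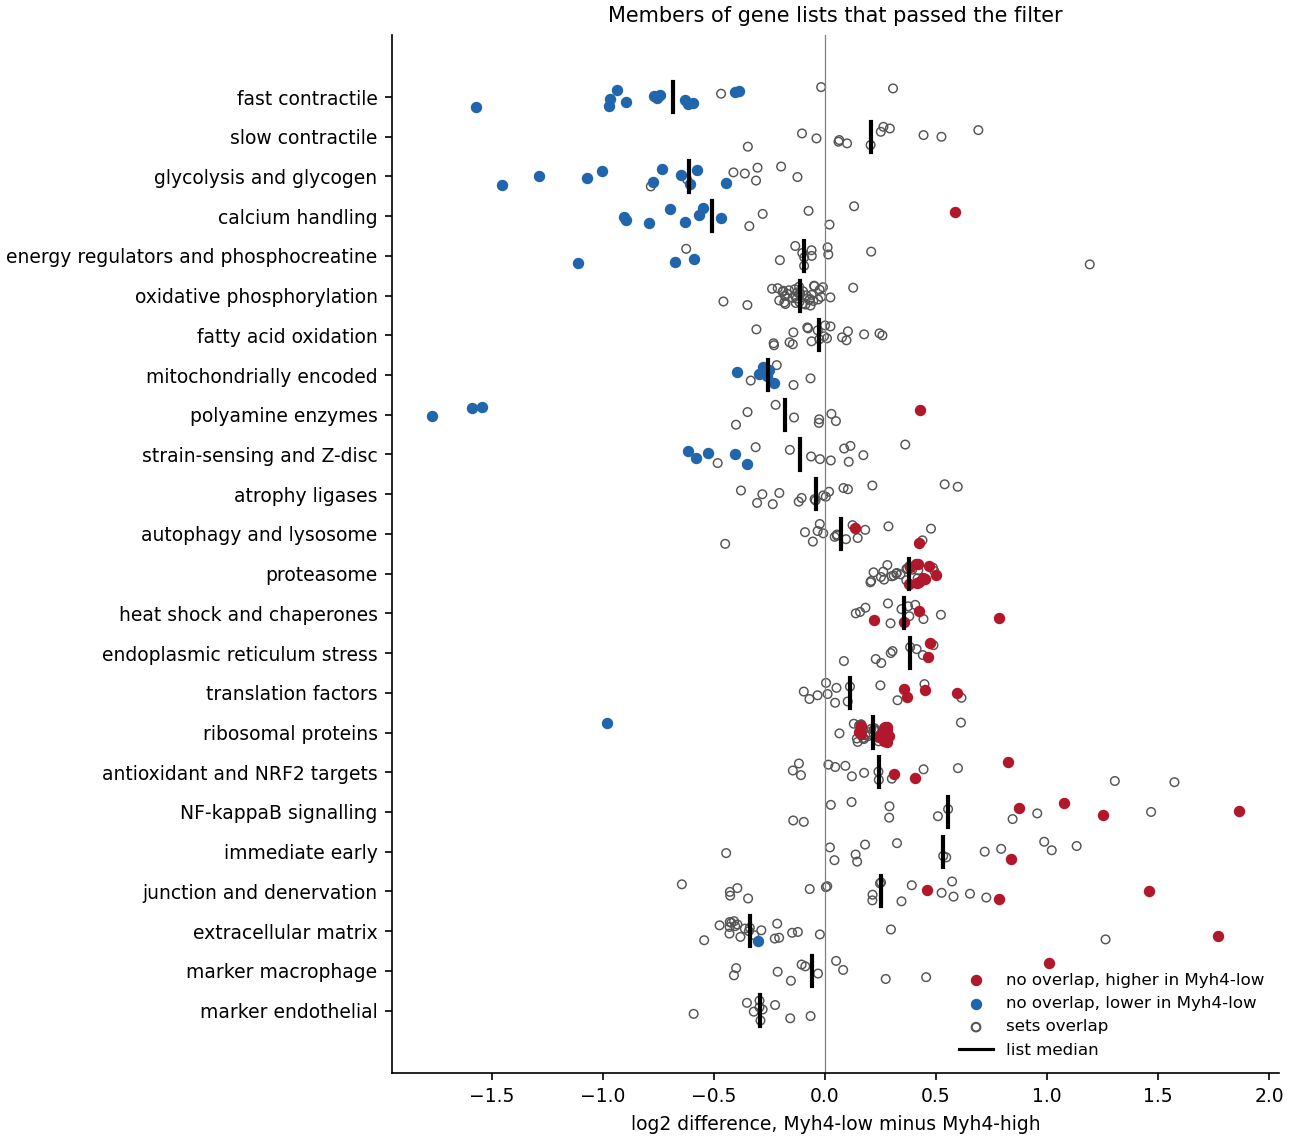
Log2 difference, Myh4-low minus Myh4-high, of every measured member of 24 gene lists. Filled points are genes whose 6 and 6 libraries do not overlap, red where higher and blue where lower in the Myh4-low set, open points are genes that overlap, and the black line is the list median. Fast contractile, glycolytic and calcium genes lie to the left, and proteasome, chaperone and NF-kappaB genes to the right.

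NF-kappaB signalling had the largest median on the higher side among the lists, 0.55 over 15 measured genes of 18 (0.77 with library totals; 0.62 among vehicle and 0.52 among boldine libraries). Without overlap 4 were higher and 0 lower. Nfkbie (chr17:45555703-45563169), an inhibitor of NF-kappaB that NF-kappaB itself induces, read 5.9, 7.92 and 14.1 CPM in the Myh4-low set and 1.3, 2.62 and 3 CPM in the Myh4-high set, and 0.318, 0.456, 0.35 and 0.907 CPM in sham (1.87 ± 0.22). Nfkb2, the p100 precursor of p52 in the non-canonical branch, read 146, 199.7 and 232 CPM in the Myh4-low set and 71.5, 86.1 and 128 CPM in the Myh4-high set, and 13.8, 9.01, 19.1 and 15.2 CPM in sham (1.08 ± 0.14). Birc3, a ubiquitin ligase of that branch and a known target gene, read 33, 40.9 and 61 CPM in the Myh4-low set and 12.2, 18.5 and 23.3 CPM in the Myh4-high set, and 6.68, 3.99, 6.04 and 5.81 CPM in sham (1.25 ± 0.17). Relb, the partner of p52, named after its values were seen, was the fourth gene, at 44.7, 61.4 and 78.1 CPM in the Myh4-low set and 28.4, 32.5 and 37.3 CPM in the Myh4-high set, and 11.7, 10.8, 11 and 11.2 CPM in sham (0.88 ± 0.12). All 4 had the Myh4-low set on top, the Myh4-high set in the middle and sham at the bottom, with no overlap anywhere. After injury 10 of the 15 genes rose and 0 fell.

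The promoters of the 3 genes with the largest difference for its error are shown because NF-kappaB has a known DNA site. They run from 250 bases before to 50 bases after the transcription start, 5′ to 3′ (RefSeq, GRCm38.p6), with matches to the kappaB consensus on either strand in capitals; overlapping matches form 1 run.
Nfkbie (chr17:45555450-45555749, plus strand): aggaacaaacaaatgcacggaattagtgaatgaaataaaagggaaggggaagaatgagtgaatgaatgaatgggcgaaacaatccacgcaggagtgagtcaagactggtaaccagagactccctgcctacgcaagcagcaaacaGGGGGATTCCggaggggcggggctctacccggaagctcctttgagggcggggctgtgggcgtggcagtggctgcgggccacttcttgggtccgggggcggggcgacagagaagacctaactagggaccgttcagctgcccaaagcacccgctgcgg
Nfkb2 (chr19:46304487-46304786, plus strand): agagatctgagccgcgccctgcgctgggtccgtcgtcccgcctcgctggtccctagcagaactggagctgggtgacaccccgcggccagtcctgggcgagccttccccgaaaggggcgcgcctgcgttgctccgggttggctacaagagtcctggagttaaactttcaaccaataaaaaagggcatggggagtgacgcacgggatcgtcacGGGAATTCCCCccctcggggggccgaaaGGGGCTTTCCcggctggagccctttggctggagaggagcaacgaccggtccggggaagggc
Birc3 (chr9:7873121-7873420, minus strand): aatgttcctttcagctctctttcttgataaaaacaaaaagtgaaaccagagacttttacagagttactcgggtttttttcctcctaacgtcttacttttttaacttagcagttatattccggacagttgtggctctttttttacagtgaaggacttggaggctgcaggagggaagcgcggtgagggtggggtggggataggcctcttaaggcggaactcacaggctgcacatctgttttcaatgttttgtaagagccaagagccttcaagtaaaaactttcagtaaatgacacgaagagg
The Nfkbie promoter holds 1 match, starting 106 bases before the start site, and the Nfkb2 promoter holds 3, at 39, 38 and 11 bases before it. The Birc3 window holds no match. Of 15 list members with a promoter in the table, 8 had a match in any of their promoters, against 9.55% of all 27025 genes. These matches describe letters only, and the list was built from known members and target genes of the pathway.

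The immediate early list had a median of 0.53, with 1 of 15 genes higher without overlap. That gene was Myc, a transcription factor of growth, at 22.9, 25.6 and 34.3 CPM in the Myh4-low set and 11.8, 15.2 and 17.3 CPM in the Myh4-high set, and 2.54, 1.6, 1.66 and 3.99 CPM in sham (0.84 ± 0.11). Junb, a subunit of AP-1, read 28.8, 48.1 and 80 CPM in the Myh4-low set and 15.8, 20.8 and 34.8 CPM in the Myh4-high set, and 7.74, 9.7, 8.67 and 9.8 CPM in sham (1.13 ± 0.24), so that its sets overlapped. The list's median was 0.18 among vehicle and 0.74 among boldine libraries. Interferon genes had 0 higher and 0 lower of 15 and a median of 0.00.

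Protein breakdown and folding divided by step. The ubiquitin ligases of atrophy had 0 higher and 0 lower genes without overlap of 17, and a median of -0.04 (0.17 with library totals). Of the 17, 4 rose and 7 fell after injury. Trim63, the ligase MuRF1, read 676, 759 and 1394 CPM in the Myh4-low set and 431, 558 and 767 CPM in the Myh4-high set, and 184, 304, 199.6 and 191 CPM in sham (0.54 ± 0.17). Without the value of SCI vehicle 2 the Myh4-low libraries lay at 676 to 791 CPM, still reaching into the Myh4-high range. Fbxo30, a ligase that BMP signalling restrains, read 36.9, 42.3 and 72.4 CPM in the Myh4-low set and 20.4, 30.9 and 40.7 CPM in the Myh4-high set, and 17.2, 16, 15.7 and 14.5 CPM in sham (0.60 ± 0.17). Fbxo32, atrogin-1, named after its values were seen, lay at 1102 to 2098 CPM in the Myh4-low set and 1076 to 1585 CPM in the Myh4-high set, against 248 to 691 CPM in sham, and so rose with injury (1.52 ± 0.23, adjusted p = 1.32e-06) without separating the sets.

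The proteasome did separate them in part. All 31 proteasome genes had a positive log2 difference, between 0.20 and 0.50, 10 were higher without overlap and 0 lower, and the median was 0.38. All 31 rose after injury. Psmd2, a subunit of the regulatory particle's base, read 762, 909 and 1047 CPM in the Myh4-low set and 593, 684 and 727 CPM in the Myh4-high set, and 283, 327, 308 and 307 CPM in sham (0.44 ± 0.07). Psmc4, an ATPase of the base, read 135, 153 and 192 CPM in the Myh4-low set and 97.2, 115 and 127 CPM in the Myh4-high set, and 61.4, 73.5, 68.5 and 64.7 CPM in sham (0.50 ± 0.08), and Psma7, of the core particle, 171, 221 and 249 CPM in the Myh4-low set and 139, 146 and 180.4 CPM in the Myh4-high set, and 63.1, 75.6, 74.7 and 74.4 CPM in sham (0.49 ± 0.08). Psmd2 and Psmc4 separated the sets, and Psma7 overlapped by 1 or more libraries. Together the 31 genes took 0.796% to 1.01% of counts in the Myh4-low set, 0.513% to 0.7% in the Myh4-high set and 0.299% to 0.322% in sham. These shares are of library totals, a scale that places all genes together 0.21 higher in the Myh4-low set on the log2 scale.

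Chaperones lay on the same side. Of 15 heat shock genes 4 were higher without overlap, none was lower, all had a positive difference, and the median was 0.36. Hsp90ab1, a constitutive HSP90, read 2595, 2780.3 and 3277 CPM in the Myh4-low set and 1908, 2063 and 2477 CPM in the Myh4-high set, and 952, 1106, 1235 and 1115 CPM in sham (0.42 ± 0.08). Cryab (chr9:50751325-50756636), the small heat shock protein alpha-B crystallin, read 447, 628 and 754 CPM in the Myh4-low set and 298, 323 and 431 CPM in the Myh4-high set, and 346, 237, 417 and 581 CPM in sham (0.79 ± 0.13). The Cryab libraries of the Myh4-high set lay within the sham range and 4 of the 6 of the Myh4-low set lay above it, and the injury test did not call it (0.27 ± 0.22, adjusted p = 0.318). Cryab shares sequence on the opposite strand with Hspb2, and Hspe1 with Hspd1. In the endoplasmic reticulum stress list 2 of 11 genes were higher (median 0.38): Hspa5, named after its values were seen, and Xbp1, a transcription factor of the unfolded protein response, which read 73.5, 83.8 and 94.3 CPM in the Myh4-low set and 51.9, 58.3 and 73.3 CPM in the Myh4-high set, and 41.6, 52.9, 43.4 and 46.2 CPM in sham (0.46 ± 0.09). The ATF4 response, another arm of stress signalling, had no gene without overlap among 15. Of 18 autophagy and lysosome genes 2 were higher, among them Ctsd, the protease cathepsin D, at 236 to 303 CPM in the Myh4-low set and 166 to 223 CPM in the Myh4-high set (0.42 ± 0.08); Tfeb, a transcription factor of lysosomal genes, was lower at 40.2 to 50.1 CPM in the Myh4-low set and 49.2 to 67.7 CPM in the Myh4-high set (-0.45 ± 0.08), with a slight overlap.

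Ribosomal proteins showed a shift between paralogs. Of 36 genes 13 were higher in the Myh4-low set without overlap and 1 was lower, with a median of 0.21 (0.43 with library totals). The lower gene was Rpl3l (chr17:24727820-24736143), the copy of Rpl3 that striated muscle uses, at 71.6, 89.4 and 107 CPM in the Myh4-low set and 120.3, 170.2 and 261 CPM in the Myh4-high set, and 492, 482, 486 and 480.5 CPM in sham (-0.98 ± 0.15). Rpl3, the copy of other tissues, read 267, 289 and 362 CPM in the Myh4-low set and 157, 191 and 271 CPM in the Myh4-high set, and 41.7, 32.3, 37.8 and 34.3 CPM in sham (0.61 ± 0.11), where SCI boldine 4 at 271 CPM reached into the Myh4-low range. Rpl3l fell and Rpl3 rose after injury (-1.85 ± 0.19, adjusted p = 7.78e-10 and 2.76 ± 0.19, adjusted p = 2.03e-13). Rpl10 read 393, 440.4 and 452 CPM in the Myh4-low set and 343, 356 and 381 CPM in the Myh4-high set, and 223, 247, 204 and 203 CPM in sham (0.27 ± 0.06). Reads of ribosomal pseudogenes can be split from their genes by the authors' counting, so single ribosomal genes are uncertain.

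Of 17 translation factors 4 were higher without overlap and none lower (median 0.11). Eif4ebp1, which blocks cap-dependent initiation until mTOR phosphorylates it, read 87.1, 103 and 128 CPM in the Myh4-low set and 58.4, 69.9 and 75.8 CPM in the Myh4-high set, and 32.1, 46.4, 36.2 and 33.1 CPM in sham (0.60 ± 0.09). Eif5a, the factor that carries hypusine made from spermidine, read 502, 531 and 619 CPM in the Myh4-low set and 404, 422 and 442 CPM in the Myh4-high set, and 294, 329.9, 320.2 and 289.6 CPM in sham (0.37 ± 0.06). In growth signalling only Akt1, the kinase downstream of insulin, separated the sets among 17 genes, at 228, 249.7 and 317 CPM in the Myh4-low set and 127, 149 and 175 CPM in the Myh4-high set, and 54.4, 56.7, 65 and 63.3 CPM in sham (0.81 ± 0.11). Mstn, the growth inhibitor myostatin, read 36.4, 57.4 and 78.8 CPM in the Myh4-low set and 61.6, 92.6 and 128 CPM in the Myh4-high set, and 63.8, 115, 85.1 and 60.3 CPM in sham (-0.71 ± 0.16), with the sets overlapping.

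Genes of the neuromuscular junction and of denervation had 3 higher and 0 lower without overlap of 22, and a median of 0.25 (0.46 with library totals). After injury 15 of them rose and 5 fell. Beside Colq and Ampd3 the third was Rapsn, which clusters acetylcholine receptors, at 37.9, 48.1 and 48.9 CPM in the Myh4-low set and 28.6, 34.1 and 36.4 CPM in the Myh4-high set, and 25.1, 25, 29.1 and 27.1 CPM in sham (0.46 ± 0.07). The receptor itself, named after its values were seen, did not separate the sets: Chrna1, its alpha subunit, lay at 110.0 to 187 CPM in the Myh4-low set and 68.7 to 153 CPM in the Myh4-high set (0.57 ± 0.14) and 7.07 to 20.2 CPM in sham. Musk, the kinase that organises the synapse, lay at 49.3 to 70.7 CPM in the Myh4-low set and 44.7 to 66 CPM in the Myh4-high set (0.01 ± 0.11). Chrne, the adult receptor subunit, leaned the other way, at 9.87 to 15.9 CPM in the Myh4-low set and 15.4 to 26.5 CPM in the Myh4-high set (-0.64 ± 0.13), with a slight overlap.

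Panx1 (chr9:15002128-15045478), a pannexin channel of the class that boldine is known to block, read 32.2, 36.9 and 64.4 CPM in the Myh4-low set and 13.8, 21.3 and 31.2 CPM in the Myh4-high set, and 8.48, 11.8, 6.83 and 8.53 CPM in sham (0.99 ± 0.20). P2rx5, an ATP-gated channel, read 15, 18.5 and 23.7 CPM in the Myh4-low set and 9.46, 10.7 and 14.8 CPM in the Myh4-high set, and 6.89, 6.05, 11.7 and 13.9 CPM in sham (0.71 ± 0.13). Both were higher without overlap, and they were the only such genes among 9 measured hemichannel and purinergic receptor genes, whose median was -0.16 (0.05 with library totals). Panx1 differed by 1.39 among vehicle and by 0.60 among boldine libraries. Gja1, connexin 43, named after its values were seen, lay at 4.58 to 8.13 CPM in the Myh4-low set and 6.41 to 8.44 CPM in the Myh4-high set (-0.37 ± 0.15).

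Cdh15, M-cadherin of satellite cells and myoblasts, was the only one of 12 satellite cell genes without overlap, at 48.5, 50.7 and 52.1 CPM in the Myh4-low set and 37.4, 42.2 and 45.2 CPM in the Myh4-high set, and 13.9, 19.2, 24.3 and 23 CPM in sham (0.28 ± 0.06). Cdk4, a kinase of early cell cycle, was the only one of 8 measured cell cycle genes, at 39.1 to 44.6 CPM in the Myh4-low set and 30 to 34.9 CPM in the Myh4-high set (0.38 ± 0.06), and Tspan31 overlaps it on the other strand. Of these, 7 of the 8 had a positive difference, with a median of 0.19. As sums over library totals neither list overlapped, but that scale places all genes together 0.21 higher in the Myh4-low set on the log2 scale. The satellite cell list took 0.589% to 0.722% of counts in the Myh4-low set, 0.483% to 0.552% in the Myh4-high set and 0.264% to 0.347% in sham, and the cell cycle list 0.0104% to 0.0165% of counts in the Myh4-low set, 0.00725% to 0.00925% in the Myh4-high set and 0.00626% to 0.0067% in sham. The satellite cell list includes Des, desmin, which muscle fibres also hold and which, named after its values were seen, lay at 4366 to 5517 CPM in the Myh4-low set and 4188 to 5188 CPM in the Myh4-high set. The list's median was 0.01. In the developmental list Mymx alone separated the sets among 8 genes. Actc1, the cardiac actin of developing muscle, read 3.18, 4.28 and 6.9 CPM in the Myh4-low set and 5.23, 7.52 and 10.4 CPM in the Myh4-high set, against 334, 217, 212 and 65 CPM in sham: it fell after injury (-5.08 ± 0.36, adjusted p = 5.52e-13) in both sets and differed between them by -0.69 ± 0.20.

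Antioxidant genes had 3 of 18 higher without overlap and none lower (median 0.24). Nqo1, a quinone reductase and classic NRF2 target, read 43, 55.3 and 67.1 CPM in the Myh4-low set and 24.6, 29.5 and 38.7 CPM in the Myh4-high set, and 20.6, 21.4, 23.4 and 19.7 CPM in sham (0.82 ± 0.12). Mt2, a metal-binding metallothionein, read 54.9, 100.01 and 142 CPM in the Myh4-low set and 15.9, 32.2 and 61.8 CPM in the Myh4-high set, and 2.12, 2.62, 2.45 and 1.36 CPM in sham (1.57 ± 0.30), the largest difference of the list though its sets overlapped. Glucocorticoid response genes had none without overlap among 14 (median -0.12, 0.10 with library totals). Klf15, a glucocorticoid target, read 23.8, 27.3 and 34.3 CPM in the Myh4-low set and 30.2, 39.5 and 47.4 CPM in the Myh4-high set (-0.43 ± 0.12). Hlf, a clock output factor, was the only circadian gene of 17 without overlap, a share near that of all genes, at 10.3 to 14.1 CPM in the Myh4-low set and 15.4 to 20 CPM in the Myh4-high set (-0.53 ± 0.10). With library totals, which shift all genes by 0.21, 0 circadian genes were lower and 1 was higher, and the median was 0.11 (TMM -0.10).

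Neutrophil and lymphocyte markers were near 0: none of 7 and none of 8 passed the filter, and Ly6g and Mpo had no count in any of the 12 libraries. The immunoglobulin gene Ighm, given above, is not on these lists, and it was measured and lower in the Myh4-low set without overlap. Of 12 measured macrophage markers Cd68 alone was higher without overlap, at 4.87, 6.01 and 7.18 CPM in the Myh4-low set and 1.84, 2.9 and 4.69 CPM in the Myh4-high set, and 1.06, 1.03, 2.28 and 0.726 CPM in sham (1.01 ± 0.20). The macrophage list's median was -0.06 (0.14 with library totals), its defining gene Adgre1, named after its values were seen, lay at 1.16 to 1.93 CPM in the Myh4-low set and 0.881 to 2.6 CPM in the Myh4-high set, and its summed share was 0.00711% to 0.0131% of counts in the Myh4-low set, 0.00471% to 0.0124% in the Myh4-high set and 0.00526% to 0.0092% in sham. Those values stand beside the higher Lgals3, Icam1, Csf2rb2 and Cd68, and the part of macrophages in these differences was not tested.

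Markers of vessels, fat, blood and connective tissue leaned lower in the Myh4-low set while their libraries overlapped. The log2 difference was below 0 in all 10 endothelial genes (median -0.29, -0.08 with library totals). The same held in all 6 measured adipocyte genes (-0.63, -0.42 with library totals) and in all 5 measured erythrocyte genes (-0.66, -0.45 with library totals). It was above 0 in 1 of 10 fibro-adipogenic genes (-0.24, -0.03 with library totals) and in 2 of 7 Schwann cell genes (-0.37, -0.15 with library totals). In each of these lists the median lay farther below 0 among boldine than among vehicle libraries, a difference that was not tested. Vehicle and boldine medians were -0.12 and -0.43 for endothelial, -0.06 and -1.15 for adipocyte and -0.45 and -0.94 for erythrocyte genes. For fibro-adipogenic genes they were -0.06 and -0.31, and for Schwann cell genes -0.15 and -0.42. None of these 5 lists had a gene without overlap. Their summed shares of library totals overlapped too, the erythrocyte list for example at 0.0147% to 0.0395% of counts in the Myh4-low set, 0.0159% to 0.0558% in the Myh4-high set and 0.0108% to 0.0237% in sham. Rgs5 and Abcc9 were the 2 of 8 pericyte and smooth muscle genes that were lower, at 118 to 163 CPM in the Myh4-low set and 171 to 198 CPM in the Myh4-high set (-0.34 ± 0.08) and at 261 to 295 CPM in the Myh4-low set and 307 to 346 CPM in the Myh4-high set (-0.19 ± 0.05). Abcc9 turned to 0.0164 with library totals, by which 0 of the list were lower and 0 higher without overlap. In the tendon and myotendinous junction list Col22a1 was alone in separating the sets among 6, and the list's share was 0.00999% to 0.0311% of counts in the Myh4-low set, 0.00773% to 0.0263% in the Myh4-high set and 0.00821% to 0.0147% in sham. Of 25 extracellular matrix genes, Lamc1, a laminin chain, was lower at 45 to 57.4 CPM in the Myh4-low set and 60 to 71.5 CPM in the Myh4-high set (-0.30 ± 0.07) and Timp1, an inhibitor of matrix proteases, was higher at 1.6 to 4.3 CPM in the Myh4-low set and 0.494 to 1.32 CPM in the Myh4-high set (1.77 ± 0.33), against a list median of -0.34. Timp1 thus went against its list. With library totals, which shift all genes by 0.21, 0 matrix genes were lower and 1 was higher without overlap, at a median of -0.13.

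Whether other genes follow Myh4 outside the libraries that were ranked could be tested only at day 28, among 12 injured libraries that took no part in the ranking. There the Myh4 share spanned 7.51% to 9.08%, a 1.21-fold range against 2.53-fold at day 7, and sham libraries of that day held 6.76% to 7.86%. In a quasi-likelihood test of the slope on the falling log2 Myh4 share, with treatment as covariate, 2 of 13386 genes (0.0149%) were higher with lower Myh4 and 0 (0%) were lower, while 527 and 456 passed an unadjusted p of 0.05 and DESeq2 called 17 and 11. The 2 genes were Slc25a22, a mitochondrial glutamate carrier (log2 change per unit fall of log2 Myh4 share 4.25, adjusted p = 0.014), and Fabp3, the fatty acid binding protein of oxidative muscle (3.39, adjusted p = 0.0372). Slc25a22 read 9.48, 15.2 and 25 CPM and Fabp3 187, 245 and 409 CPM over the 12 libraries. At day 7 neither separated the sets (0.09 ± 0.19 and 0.03 ± 0.20). Without SCI vehicle 3, SCI vehicle 4, SCI boldine 2 or SCI boldine 6 of day 28 no gene was called on the higher side, and without SCI vehicle 5 or SCI boldine 1, 3, 4 or 5 only 1 was.

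Of the 20 genes with the largest differences at day 7, Mymx and Nfkbie were too low to be measured at day 28, and none of the others was called. Gpd1, for example, read 857, 954 and 1089 CPM in the 12 injured libraries of day 28 and 713, 781 and 830.2 CPM in sham, and Nfkb2 12.1, 14.7 and 18.3 CPM in those injured libraries and 13.5, 14.8 and 16.5 CPM in sham. Lgals3 read 2.42, 5.05 and 6.74 CPM in the injured libraries and 0.806, 1.22 and 2.37 CPM in sham, and Smox 371, 505 and 622 CPM in the injured libraries and 393, 637 and 725 CPM in sham. All 12 injured libraries of day 28 lay above every Myh4-low library for Gpd1 and Smox, and below every Myh4-low library for Nfkb2 and Lgals3. With so narrow a range of Myh4, the slope test does not show that the day-7 differences are missing at day 28.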

How the data were processed

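Messenger RNA libraries from gastrocnemius were deposited as raw read counts per gene. Per the submitters' processing notes, the tools were FastQC, Trim Galore, cutadapt and STAR and the build mm10. Their versions, the counting step and its strand setting were not given in the sources used. Per the labels' protocols, RNA came from the miRNeasy kit and libraries from NEBNext Ultra, a kit that does not mark strand. Nothing in the labels gives a library or sequencing batch.

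Identifiers were matched to the GENCODE M21 annotation of mm10 (55227 of 55487); the other 260 held 0.0189% of counts. The members, the gene lists and the tests were chosen with earlier results of these data known. The low-count filter was filterByExpr in edgeR 4.0.16 (minimum count 10, minimum total 15), and it left 14955 genes over all 32 libraries and 13872 in the 12 day-7 injured libraries. TMM factors came from all 32 libraries. Set differences are log2 fold changes of an edgeR quasi-likelihood fit with treatment as covariate in R 4.3.3, and their SE is an approximation from the F statistic. Injury was tested as the mean of SCI vehicle and SCI boldine minus sham at day 7 in 1 model of all 32 libraries, and the day-28 slope among 12 libraries, both two-sided with Benjamini-Hochberg adjustment and a threshold of 0.05. The scripts were tested on simulated data. The labels do not say that each library is a separate animal, so p-values measure only the spread between these libraries.

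Apart from the muscle-defining genes, markers at 0 and genes that overlap or copy a named one, genes named without a remark are, in each direction, the 10 largest differences without overlap at a mean of at least 5 CPM, the 3 members of each list with the largest difference for its SE, list members without overlap that go against their list, the skeletal myosin genes, and the day-28 genes of smallest p. A gene that the rule names is not reported here. Promoters came from RefSeq. Limits from a count of 0 hold for counting error alone, as reads carry no molecular identifiers. Alternatives were other scalings and filters, DESeq2 1.42.0, a replicate block, fewer libraries and each treatment alone.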

Additional observations from a re-analysis of the deposited data

Results flagged for a closer look

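Of 284 checks of a named gene in a set of 6 libraries, 24 found 1 library that stood apart from the other 5 by more of the range than Dixon's 95% limit allows, and chance alone flags about 1 in 20 groups. In the Myh4-low set, SCI vehicle 2 stood apart for Actn3 at 5117 CPM (below 6353 to 6898), Fbxo30 at 72.4 CPM (above 36.9 to 43.4), Myc at 34.3 CPM (above 22.9 to 26.3), Myl2 at 30.1 CPM (above 6.53 to 11), Rpl3 at 362 CPM (above 267 to 301), Smox at 37.5 CPM (below 73.0 to 93.1), Tnni1 at 21.8 CPM (above 7.18 to 12.6) and Trim63 at 1394 CPM (above 676 to 791), where the ranges are those of the other 5 libraries. In the Myh4-high set, SCI boldine 4 stood apart for Ankrd1 at 165 CPM (above 34.7 to 70.6), Myh2 at 763 CPM (above 84.1 to 335), Myh3 at 13.6 CPM (above 0.488 to 3.43), Rpl10 at 381 CPM (above 343 to 357) and Rpl3 at 271 CPM (above 157 to 197). In the Myh4-low set, SCI boldine 2 stood apart for Bhlhe40 at 115 CPM (above 93.1 to 101) and Chac1 at 90.1 CPM (above 20.6 to 44.8). In the Myh4-low set, SCI boldine 3 stood apart for Ccnd1 at 16.7 CPM (above 2.09 to 4.10) and Slc7a5 at 21.1 CPM (above 7.10 to 9.31). In the Myh4-low set, SCI boldine 5 stood apart for Hbb-bs at 171 CPM (above 59.0 to 93.2) and Lamc1 at 45 CPM (below 54.0 to 57.4). In the Myh4-low set, SCI vehicle 5 stood apart for Dcn at 149 CPM (above 108 to 121) and Icam1 at 47.1 CPM (above 11.9 to 21.8). In the Myh4-low set, SCI vehicle 1 stood apart for Cox7a1 at 22.7 CPM (below 30.0 to 34.3). In the Myh4-high set, SCI vehicle 4 stood apart for Cdh19 at 1.95 CPM (above 0.748 to 0.866). In the Myh4-high set, SCI vehicle 6 stood apart for P2ry2 at 17.8 CPM (below 23.5 to 26.4).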

How the results depend on the processing

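Genes without overlap numbered 481 higher and 533 lower in the Myh4-low set. They numbered 2053 and 151 with library totals, 1341 and 1433 with the 4 lowest against the 4 highest libraries, 2130 and 2056 among vehicle libraries only, and 1430 and 1709 among boldine libraries only; the last 3 hold fewer libraries, in which fewer can overlap. Leaving out 1 library gave 514 to 792 higher and 574 to 851 lower. DESeq2 size factors, removal of Myh4 and no filter kept both counts within 1.5 times. The balance turned, however, to 562 higher and 452 lower with DESeq2 size factors and to 580 and 435 with Myh4 removed. Of 3124 log2 differences (142 named genes under 22 alternatives), 2979 moved by less than 1 SD of the libraries and 144 moved more. The 144 were 60 with library totals, 31 with the replicate block, 23 with 4 against 4, 16 with vehicle and 14 with boldine libraries only. Among genes without overlap 1 value changed sign, that of Abcc9 with library totals (0.0164). Changes of sign in genes whose sets overlap were not counted apart. Genes that rose and fell after injury numbered 3458 and 3760, and 7806 and 1424 with library totals, which shift all genes by 0.42; the cause was not tested further. At day 28 the 2 higher and 0 lower genes became 9 and 4 with no filter, 17 and 11 with DESeq2, 4 higher with the replicate block, 2 lower with a term for SCI vehicle libraries 1 to 4, and 0 higher without the 2 libraries farthest in Myh4; leaving out 1 library gave 0 to 3 higher. Replicate numbers did not pair the day-7 vehicle and boldine libraries: correlations of same-numbered libraries ran from -0.276 to 0.312, and 2 of 6 libraries correlated best with their own number. The replicate block left 3288 genes higher and 3503 lower after injury. Depth limits genes near 0.342 CPM, the most that 3 counts stand for in any library on the TMM scale.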
